A study of Mus musculus with 23 samples.

Results

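The genes described here are 29 genes of B cells, B cell follicles and germinal centres, followed by RNA sequencing through whole jejunum of 2 genotypes of mice in 5 states. The members were chosen as a named list, and all 29 were found in the deposited table of 55487 genes. Every one of them also passed the filter on low counts that left 17236 genes for testing. The tissue was whole jejunum from which fat and Peyer's patches had been removed, per the labels. The mice were Cpa3Cre/+, a genotype labelled as mast cell-deficient, or Cpa3+/+ wild type. By its name the Cpa3Cre/+ genotype has Cre at 1 of its 2 copies of Cpa3, a mast cell carboxypeptidase gene, so any cell in which that locus is active can carry the recombinase.

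Naive mice were untreated. Immunized mice had received 25 µg ovalbumin with 2 mg alum into the peritoneum on days 0 and 14. Challenged mice had been immunized in the same way and then offered a choice of plain water or a drink of 20% egg white with 8% sugar, beginning on day 20 and lasting 1, 3 or 5 days (called day 1, day 3 and day 5 here). Cpa3Cre/+ mice gave 11 libraries: 2 naive, 2 immunized, 2 day 1, 2 day 3 and 3 day 5. Cpa3+/+ mice gave 12: 3 naive, 2 immunized, 3 day 1, 2 day 3 and 2 day 5. The labels give 18 female and 5 male libraries. Male were Cpa3+/+ naive replicate 3 and, in Cpa3Cre/+, naive replicate 2, immunized replicate 1, day 1 replicate 2 and day 3 replicate 2. In the immunized, day 1 and day 3 states only Cpa3Cre/+ had a male library, so sex and genotype were partly confounded. The tests held a sex term, which rests on these few libraries. The labels do not state whether each library is from its own animal. P-values therefore reflect how far the libraries of a group spread, and part of that spread may be technical. Total counts per library were 5.48 to 19.34 M (median 13.81 M). Levels are given as CPM, read counts scaled to a library of 1 M reads, and 1 read was worth 0.0498 to 0.165 CPM. Of 9 mast cell genes tested, 4 were called lower in Cpa3Cre/+ than in Cpa3+/+ over the mean of the 5 states (Cpa3, Mcpt1, Mcpt2 and Fcer1a). None was called higher, and 0.029% of all genes were called in either direction.

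A B cell follicle is a compact cluster of resting B cells held together by a network of stromal cells. Follicular dendritic cells and related stroma release the chemokine CXCL13, B cells follow it through the receptor CXCR5, and lymphotoxin made by the B cells maintains the stroma. Inside a follicle that has met antigen, a germinal centre can form, in which B cells driven by the repressor BCL6 divide, mutate their antibody genes and compete for antigen. The gut wall holds such follicles in Peyer's patches and in small isolated lymphoid follicles scattered along the intestine. Plasma cells, the antibody-secreting end stage, have switched off most of the B cell programme and lie throughout the lamina propria, outside follicles. In bulk tissue, fewer cells of a type and less RNA per cell cannot be told apart.

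Some members encode transcription factors, so the members' promoters were searched for the motifs of these factors. POU2AF1 is a co-activator that works at the octamer ATGCAAAT, Ebf1 encodes a factor that binds a palindrome with the core CCCNNGGG, and SPIB and its relative PU.1 bind the PU box GAGGAAGT. RefSeq promoters (GRCm38.p6, 250 bases before to 50 bases after a start) were matched by symbol for 23 of the 29 members, with 28 promoters in all, and both strands were searched. The octamer was found in 2 of the 28 member promoters (7.14%, Mef2b and Vpreb3), against 1.74% of all 32851 promoters in the table. The Ebf core was found in 3 (10.7%, Bank1, Cd22 and Spib), against 13.7% of all promoters, and the PU box in 3 (10.7%, Btla, Cd37 and Cd72), against 3.20% of all promoters. These matches are descriptions of letters, not of binding. Spib is shown because it was the only match among the 5 members with the highest mean level. Cd22, Cd72 and Vpreb3 were added after the matches had been seen, so that each motif is shown at least once. Sequences are written 5′ to 3′ along the gene, and capitals mark the motif or its reverse complement. The Spib promoter (chr7:44532022-44532321, minus strand) holds the Ebf core in 2 overlapping registers, and that of Cd22 (chr7:30878979-30879278, minus strand) holds it once. The Cd72 promoter (chr4:43454577-43454876, minus strand) holds a reversed PU box, and that of Vpreb3 (chr10:75948050-75948349, plus strand) a reversed octamer.
Spib: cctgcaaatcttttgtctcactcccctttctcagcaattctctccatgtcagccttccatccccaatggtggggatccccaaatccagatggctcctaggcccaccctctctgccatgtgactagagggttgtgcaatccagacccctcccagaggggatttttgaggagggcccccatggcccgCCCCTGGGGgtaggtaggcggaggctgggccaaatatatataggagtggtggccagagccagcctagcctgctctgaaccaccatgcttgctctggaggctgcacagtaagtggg
Cd22: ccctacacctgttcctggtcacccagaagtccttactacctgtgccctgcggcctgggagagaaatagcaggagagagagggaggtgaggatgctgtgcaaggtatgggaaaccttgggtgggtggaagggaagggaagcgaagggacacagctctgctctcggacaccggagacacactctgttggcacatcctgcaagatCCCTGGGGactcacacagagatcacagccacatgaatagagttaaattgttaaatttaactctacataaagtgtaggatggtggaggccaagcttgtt
Cd72: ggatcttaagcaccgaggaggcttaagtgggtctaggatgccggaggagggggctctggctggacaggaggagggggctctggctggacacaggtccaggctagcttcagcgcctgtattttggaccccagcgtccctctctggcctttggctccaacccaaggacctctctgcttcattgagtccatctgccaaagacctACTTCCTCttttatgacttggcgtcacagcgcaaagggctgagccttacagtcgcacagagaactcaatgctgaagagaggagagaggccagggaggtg
Vpreb3: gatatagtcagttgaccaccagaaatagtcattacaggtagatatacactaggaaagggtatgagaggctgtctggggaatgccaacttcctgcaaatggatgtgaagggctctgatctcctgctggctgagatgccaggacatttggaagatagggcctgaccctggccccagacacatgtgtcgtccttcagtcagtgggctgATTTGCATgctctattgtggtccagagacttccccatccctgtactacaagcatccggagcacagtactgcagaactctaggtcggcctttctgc

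In 3 of the 23 libraries follicle transcripts stood well above the rest, and 1 more library passed the same threshold by less. The 4 came from different genotypes and states. They were identified by a sum of 5 members of B cells and follicular dendritic cells: Cr2 (complement receptor 2, on both cell types), Fcer2a (the low-affinity IgE receptor CD23), Ms4a1 (CD20), Pax5 (the factor that commits cells to the B lineage) and Cd22 (an inhibitory lectin). A library was called a follicle library when this sum exceeded 3 times the median over 23 libraries, which was 7.26 CPM. The sum was 88.9 CPM in Cpa3+/+ immunized replicate 1 (12.3 times the median, from 1288 reads), 73.6 CPM in Cpa3Cre/+ immunized replicate 2 (10.1 times, 964 reads), 38.9 CPM in Cpa3Cre/+ day 1 replicate 2 (5.36 times, 530 reads) and 25.8 CPM in Cpa3+/+ naive replicate 1 (3.55 times, 156 reads). The last of these is also the shallowest library. Just outside the threshold lay Cpa3+/+ day 5 replicate 2 with 21.2 CPM (2.92 times, 317 reads), followed at a distance by Cpa3Cre/+ day 1 replicate 1 with 13.6 CPM (1.87 times). The remaining 17 libraries lay at or below 10.8 CPM. Because the 5 genes chose the libraries, their levels there are a description and were not tested. The number of follicle libraries depended on the rule: it was 5 at 2 times the median or with plain library totals, 3 at 5 times the median, and 2 when all 29 members were summed. Cd22 differed from the other 4 genes: in the 18 libraries outside the top 5 its median level was 5.14 CPM, against 0.303 to 0.393 CPM for the other 4, and it made up a median of 75.6% of the sum. With the sum of those 4 genes alone, an alternative added after seeing the data, 5 libraries passed 3 times the median, at 34.4, 28.3, 11.3, 7.41 and 6.67 times, and the next was at 2.06 times.

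**Figure D1:**
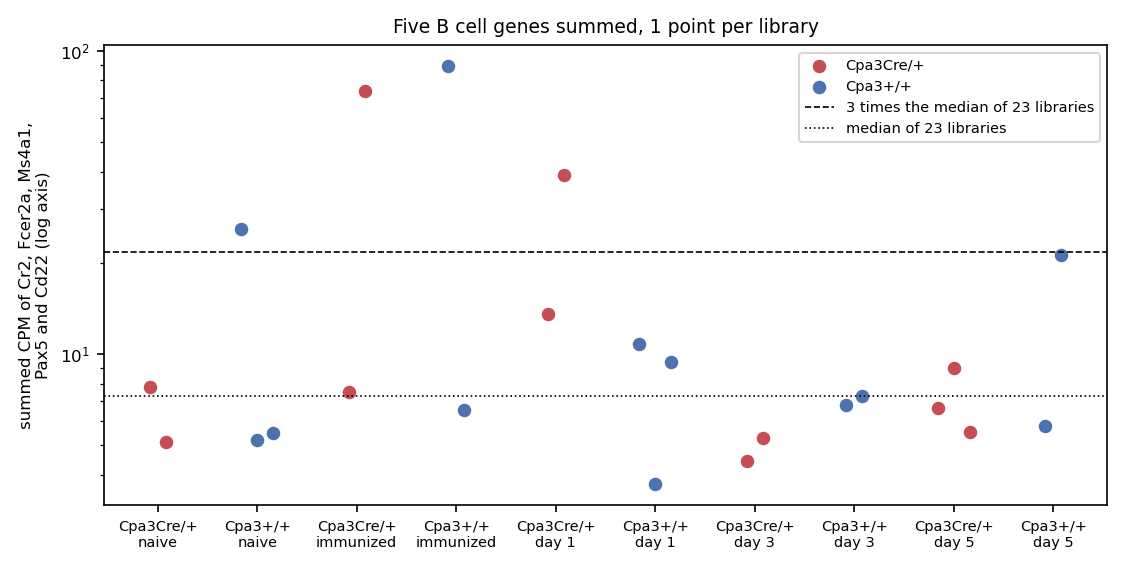
Summed CPM of Cr2, Fcer2a, Ms4a1, Pax5 and Cd22 (log axis) in each library, by genotype and state, with 1 point per library. The 4 follicle libraries lie above the dashed line at 3 times the median, each in a different group, and 1 point at 21.2 CPM lies just below it.

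The other library of each of these groups did not share the high sum. In the immunized state the sums were 7.498 and 73.6 CPM in Cpa3Cre/+ and 88.9 and 6.57 CPM in Cpa3+/+, so the spread inside each genotype far exceeded the difference between them. On day 1 they were 13.6 and 38.9 CPM in Cpa3Cre/+ and 10.8, 3.73 and 9.45 CPM in Cpa3+/+. In the naive state they were 7.80 and 5.13 CPM in Cpa3Cre/+ and 25.8, 5.22 and 5.51 CPM in Cpa3+/+. On day 3 no library of either genotype exceeded the median of 7.26 CPM. Of the 4 follicle libraries, 3 were female and Cpa3Cre/+ day 1 replicate 2 was male.

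The 24 members that the rule did not use were high in the same libraries. In Cpa3+/+ immunized replicate 1, 19 of these 24 exceeded every one of the 18 libraries outside the top 5, as did 2.63% of all genes tested. The count was 19 of 24 in Cpa3Cre/+ immunized replicate 2 (3.57% of all genes) and 18 of 24 in Cpa3Cre/+ day 1 replicate 2 (5.37% of all genes). It was 7 of 24 in Cpa3+/+ naive replicate 1 (3.36% of all genes) and 8 of 24 in Cpa3+/+ day 5 replicate 2 (4.51% of all genes). Most of the 24 thus stood out in the first 3 libraries, and fewer of them in the other 2. The filter on low counts used all 23 libraries. Members low in the 18 could pass it through the 5 libraries. Such members were Blk (at most 0.510 CPM), Mef2b (at most 0.676 CPM), Fcmr (at most 0.728 CPM) and Cxcr5 (at most 0.753 CPM), among others. For such members, exceeding all 18 follows in part from the filter, so these counts are a description. Summed over all 29 members, the 5 libraries held 379, 323, 252, 134 and 167 CPM in the same order, and the other 18 held 56.1 to 115 CPM.

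**Figure D2:**
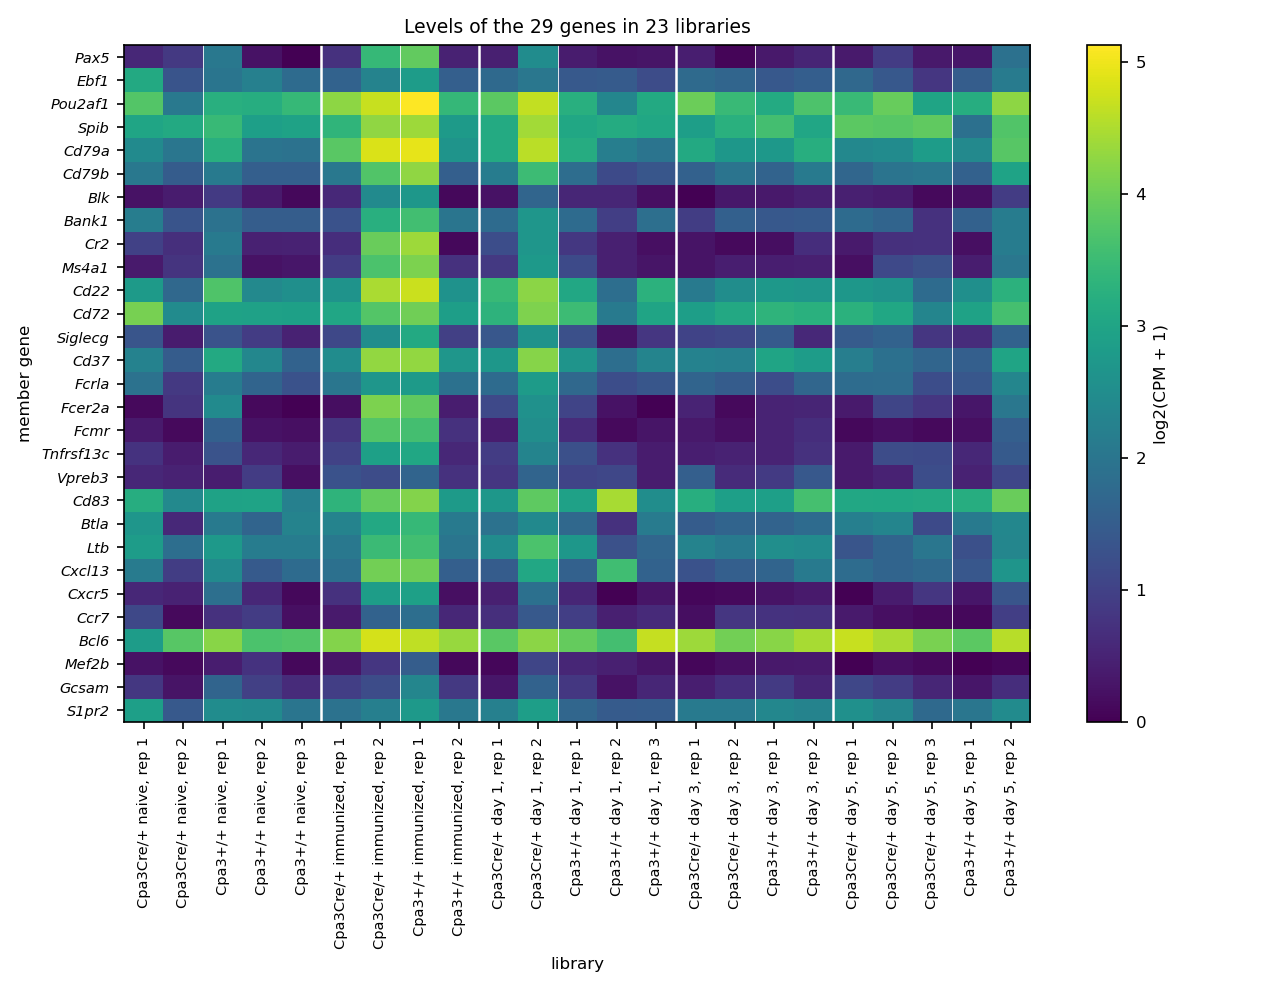
Level of each of the 29 genes as log2(CPM + 1), with genes in rows and the 23 libraries in columns, in order of state with Cpa3Cre/+ left of Cpa3+/+. The columns of 3 libraries (Cpa3Cre/+ immunized replicate 2, Cpa3+/+ immunized replicate 1 and Cpa3Cre/+ day 1 replicate 2) are bright over most rows, whereas Bcl6 is bright in nearly every column.

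The members differed in how strongly they marked these libraries. The highest library stood over the median of 23 by 1.53-fold for Bcl6 up to 42.8-fold for Fcmr, and the median member by 5.12-fold. For 8 members the factor exceeded 10, for 15 it exceeded 5, and for 8 it stayed under 3. In 17 members the highest library was Cpa3+/+ immunized replicate 1, in 5 it was Cpa3Cre/+ immunized replicate 2 and in 4 it was Cpa3Cre/+ day 1 replicate 2. The 3 exceptions were Ebf1 and S1pr2, both highest in Cpa3Cre/+ naive replicate 1, and Cd83, highest in Cpa3+/+ day 1 replicate 2. In the following, ratios are CPM in a library over the median CPM of the 18 libraries outside the top 5, and the 5 libraries are given in the order of their 5-gene sum.

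Among the B cell identity factors, Pax5 ranged more widely than the other 3. Pax5 was at 13.95, 9.78, 4.63, 3.14 and 2.74 CPM in the 5 libraries and at 0 to 0.874 CPM (median 0.303) in the other 18, so the ranges did not overlap. Pax5 is part of the 5-gene sum that ranked the libraries, so this separation is in part built in. Pou2af1, the octamer co-activator that plasma cells also express, was at 33.9, 25.0, 24.0, 8.43 and 17.97 CPM, against 3.22 to 18.1 CPM (median 9.73) in the other 18, and only the first 3 lay above that range. Spib, which is also used by M cells and plasmacytoid dendritic cells, was at 19.7, 18.5, 20.3, 9.92 and 12.3 CPM, against 2.74 to 13.7 CPM. Ebf1, which stromal and adipose progenitor cells use as well, overlapped between the libraries. It was at 6.15, 3.895, 3.09, 2.98 and 3.41 CPM in the 5 libraries, and 16 of the 18 others lay below all 5. The exceptions were Cpa3+/+ naive replicate 2 with 3.67 CPM and, with 7.71 CPM, Cpa3Cre/+ naive replicate 1, the library with the highest sum of 10 smooth muscle genes (8263 CPM, against 1023 to 4663 CPM in the other 22). The part of muscle content in the Ebf1 level was not tested.

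The antigen receptor genes were highest in the same 3 libraries, and the last 2 of the 5 stood apart less. Cd79a and Cd79b encode the signalling pair of the B cell receptor, of which plasma cells keep the first. Cd79a was at 29.8, 27.5, 23.2, 8.43 and 12.8 CPM, against 2.79 to 13.0 CPM in the other 18, so the last 2 lay inside that range. Cd79b was at 18.2, 12.3, 10.4, 3.31 and 6.81 CPM, against 1.21 to 3.48 CPM. Blk, a Src-family kinase of B cells, was at 5.52, 4.51, 2.20, 0.827 and 0.868 CPM, each above the 0 to 0.510 CPM of the other 18, whereas Bank1, a B cell scaffold protein, was 5.74, 4.39, 2.88, 1.47 and 1.82 times its median of 1.91 CPM.

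The surface receptors held both the steepest and some of the flattest members. Fcmr, the receptor for IgM, had the widest range: it was at 11.1, 12.5, 4.78, 1.98 and 1.94 CPM, which is 52.7, 59.4, 22.6, 9.41 and 9.18 times its median of 0.211 CPM in the other 18 libraries. None of those 18 exceeded 0.728 CPM. Fcer2a was 43.7, 52.8, 16.3, 14.4 and 9.88 times its median, Cr2 50.5, 36.8, 13.8, 8.42 and 8.85 times, and Ms4a1 46.0, 33.3, 16.5, 7.90 and 8.63 times. Fcer2a, Cr2, Ms4a1 and Cd22 are part of the sum that ranked the libraries, so their separation is in part built in. Tnfrsf13c, the receptor for the survival factor BAFF, was 15.0, 13.5, 8.19, 3.07 and 3.58 times its median. Siglecg, an inhibitory lectin related to Cd22, was 7.61, 4.70, 5.18, 1.48 and 2.06 times its median. Cd22 itself stayed at a median of 5.14 CPM in the 18 libraries and was 4.91, 4.12, 3.49, 2.35 and 1.72 times that level in the 5.

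The remaining surface members were flatter. Cd37, a tetraspanin, was 4.86, 4.87, 4.51, 2.00 and 1.84 times its median, and Btla, an inhibitory receptor shared with T cells, 3.70, 2.84, 1.68, 1.26 and 1.60 times. Fcrla, an Fc receptor-like protein of B cells, was 2.78, 2.57, 2.82, 1.62 and 1.91 times its median, with every one of the 5 above all 18 others. Cd72, which restrains receptor signalling, was 2.16, 1.77, 2.34, 0.964 and 1.60 times its median. Vpreb3, which binds immunoglobulin chains in B cell precursors, was at 2.14 CPM at most and separated no more than 2 of the follicle libraries. Cd83, an activation marker that dendritic cells also carry, was at 16.99, 14.1, 13.5, 6.78 and 14.5 CPM in the 5 libraries and at 21.1 CPM in Cpa3+/+ day 1 replicate 2, the library with the lowest 5-gene sum of all (3.73 CPM).

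**Figure D3:**
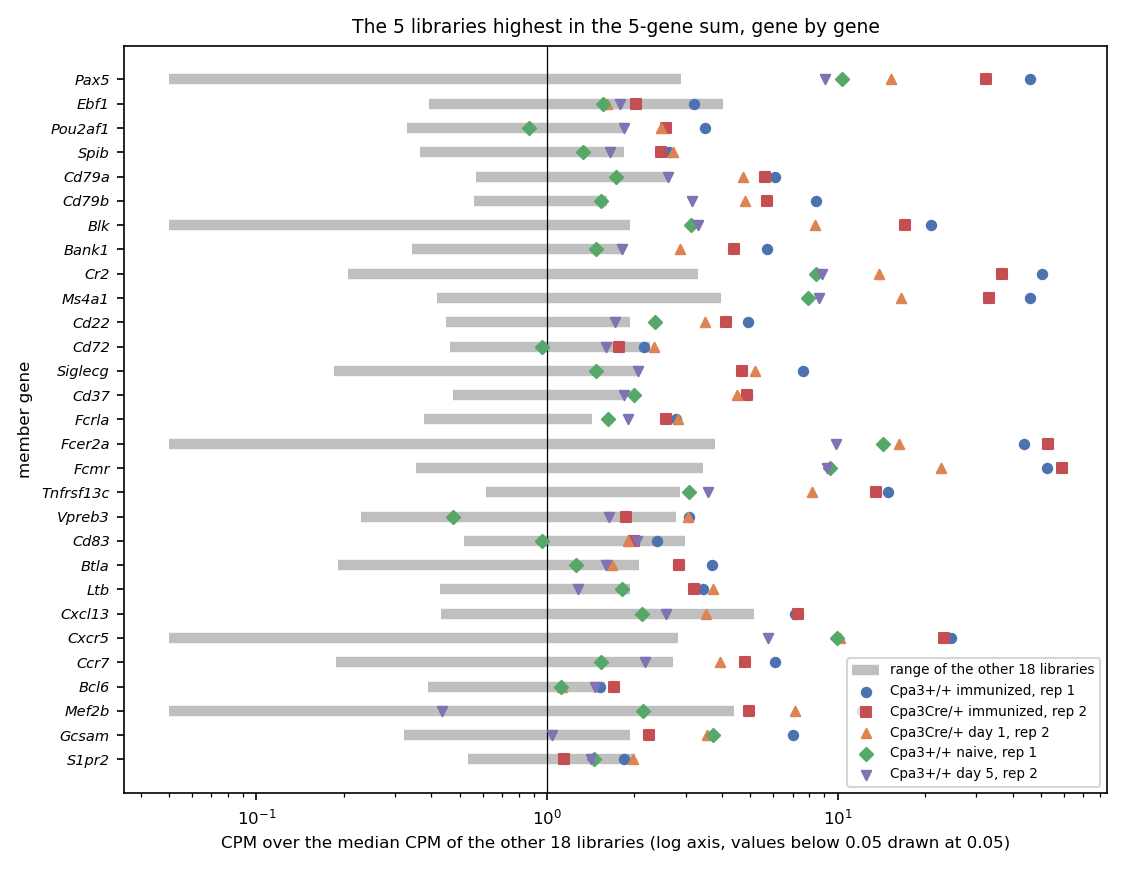
CPM of each member in the 5 libraries with the highest 5-gene sum, divided by the median of the other 18 (log axis, grey bars show the range of those 18). For Fcmr, Fcer2a, Cr2, Ms4a1 and Pax5 all 5 symbols lie to the right of the grey bar, whereas for Ebf1, Cd83 and S1pr2 most symbols lie inside it. Fcer2a, Cr2, Ms4a1 and Pax5 are part of the sum that ranked the libraries. Fcmr is not, but it was at most 0.728 CPM in the 18 and could pass the filter on low counts through the 5 libraries. Its separation is therefore in part built in as well.

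The chemokine genes were high in the 3 leading libraries as well. Cxcl13 was at 15.1, 15.4, 7.42, 4.46 and 5.41 CPM, against a median of 2.10 CPM in the other 18. It was also at 10.8 CPM in Cpa3+/+ day 1 replicate 2, where its receptor Cxcr5 had no read, so this library was high in Cxcl13 and Cd83 without the B cell genes. Cxcr5 was at 6.56, 6.19, 2.72, 2.65 and 1.54 CPM, and no other library exceeded 0.753 CPM. Ltb, a subunit of lymphotoxin that many lymphocytes make, was 3.45, 3.21, 3.72, 1.82 and 1.28 times its median of 3.18 CPM. Ccr7, which directs naive lymphocytes to stroma rich in T cells, was 6.11, 4.80, 3.93, 1.54 and 2.18 times its median of 0.430 CPM.

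Of the 4 germinal centre members, Gcsam and Mef2b were high in some of the follicle libraries, and Bcl6 and S1pr2 were among the flattest members. Gcsam, a signalling protein of germinal centre B cells, was at 1.30 CPM in Cpa3Cre/+ immunized replicate 2, against 4.07 CPM in Cpa3+/+ immunized replicate 1. It was at 2.06 CPM in Cpa3Cre/+ day 1 replicate 2, 2.15 CPM in Cpa3+/+ naive replicate 1 and 0.186 to 1.12 CPM in the 18. Set against the 5-gene sum, Gcsam had 1.76 reads per 100 reads of the 5 genes in the Cpa3Cre/+ immunized library (95% exact Poisson interval 1.03 to 2.82), against 4.58 in the Cpa3+/+ immunized library (3.49 to 5.91). In Cpa3Cre/+ day 1 replicate 2 the value was 5.28 (3.51 to 7.64), in Cpa3+/+ naive replicate 1 it was 8.33 (4.44 to 14.3) and in Cpa3+/+ day 5 replicate 2 it was 2.84 (1.30 to 5.39), so Gcsam held no fixed ratio to the 5 genes. These intervals cover the counting error of the single gene only, leave out that of the 5-gene sum, and compare single libraries, not genotypes. Cd22, which was also present in the 18 libraries, made up 28.3% to 46.8% of the sum in the 5. The ratios are therefore not on the same scale across libraries. For comparison, and chosen after their values were seen, Cxcl13 had 20.9 reads per 100 (18.1 to 23.9) in the Cpa3Cre/+ and 16.9 (14.8 to 19.3) in the Cpa3+/+ immunized library. Ighd had 36.6 (32.9 to 40.6) in the Cpa3Cre/+ and 26.9 (24.2 to 29.9) in the Cpa3+/+ immunized library. Between these 2 single libraries the ratio was lower in the Cpa3Cre/+ one for Gcsam and higher in it for Ighd and Cxcl13. The 5 genes of the denominator also chose these libraries, so the ratios and their intervals are a description and test nothing. Mybl1, a transcription factor gene active in germinal centre B cells and no member of the list, had 1.76 reads per 100 (1.03 to 2.82) in the Cpa3Cre/+ immunized library, against 5.75 (4.51 to 7.21) in the Cpa3+/+ immunized library, but it reached 9.62 (5.38 to 15.9) in Cpa3+/+ naive replicate 1 and 12.9 (9.28 to 17.5) in Cpa3+/+ day 5 replicate 2, so it held no fixed ratio to the 5 genes either.

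Mef2b, a partner of Bcl6 in germinal centres, was at 0.764 CPM in the Cpa3Cre/+ immunized library, against 1.86 CPM in the Cpa3+/+ immunized library, and at 0 to 0.676 CPM in the 18. Per 100 reads of the 5 genes it had 1.04 (0.497 to 1.91, from 10 reads) in the Cpa3Cre/+ library and 2.10 (1.38 to 3.05, from 27 reads) in the Cpa3+/+ library, and these intervals overlapped. Its reads are uncertain, because Borcs8, at a median of 21.7 CPM, overlaps it on the same strand. S1pr2, which holds germinal centre B cells in place and is also made by vessel and muscle cells, was at 5.87, 3.67, 6.32, 4.63 and 4.54 CPM in the 5 libraries and at up to 6.44 CPM, in Cpa3Cre/+ naive replicate 1, in the others. Bcl6 was at 24.0, 26.7, 17.7, 17.5 and 22.98 CPM, against 6.14 to 25.0 CPM in the 18. Bcl6 is made by many cell types besides germinal centre B cells, and in this tissue its level did not separate the follicle libraries.

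Outside the follicle libraries the order of the members was different. Per kilobase of exon, the median over the 18 libraries was highest for Pou2af1 (3.82 CPM per kb), Cd79a (3.36), Cd83 (2.75), Spib (2.61) and Bcl6 (2.35). Their ranges over the 18 libraries overlapped, so neighbours in this order did not differ beyond their spread. The lowest medians per kilobase were those of Pax5 (0.0342 CPM per kb), Cr2 (0.0484), Ms4a1 (0.0575), Cxcr5 (0.0798) and Blk (0.0976). Pax5 had a median of 4 reads and Cr2 of 4.5 reads there, and Pax5 and Blk had no read in 1, Cxcr5, Fcer2a and Mef2b no read in 2 of the 18 libraries. Fcmr and Blk had a median of 3 reads, Cxcr5 of 3.5, Fcer2a of 4 and Ms4a1 of 5 reads, near the limit of detection. Other genes of mature B cells were better covered in the 18 libraries, with medians of 64 reads for Cd22, 50 for Cd37, 30 for Cd79b, 29.5 for Fcrla and 24.5 for Bank1. Other coding genes overlap Cd72 (Tesk1), Cd37 (Tead2) and Cxcr5 (Bcl9l) on the opposite strand and a pseudogene overlaps Fcrla on the same strand; how the strand was used in counting is not given in the sources used here, so those reads could be shared.

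Correlations among the members were lower outside the 5 libraries, where the range of levels is narrower by the choice of those libraries. Over 23 libraries, the correlation of a member's log2(CPM + 1) with the mean of the other 28 had a median of 0.879, from 0.409 for Bcl6 to 0.970 for Fcmr, and exceeded 0.8 for 18 members. Over the 18 libraries outside the top 5 the median was 0.496, and it exceeded 0.8 for Fcrla alone (0.812). These are descriptions across libraries that share tissue composition and depth. Among the 12 genes most alike to the member mean over 23 libraries were Fcrl1 (r = 0.964), Chst3 (0.960), Ighd (0.946), H2-Ob, Hvcn1, H2-DMb2, Stra6, Ighg3, Pou2f2, Ighm and Cnr2 (0.891). Over the 19 libraries that were not follicle libraries the closest were Fcer1g (0.889), Arhgdib (0.875) and Il2rg (0.825), genes expressed broadly in blood cells. These 19 include Cpa3+/+ day 5 replicate 2, which lay in the top 5 and is not among the 18 above. H2-Ob and Pou2f2 were the 2 genes among the closest 12 in both.

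Genes outside the 29 described what else the 5 libraries held. Of 22 further B cell genes, 4 exceeded all 18 other libraries in every one of the 5, 4 did so in 4 of them, 4 in 3, 2 in 2, 4 in 1 and 4 in none, the last being Blnk, Ralgps2, Cd40 and Cd55. In single libraries of the 5, 2.63% to 5.37% of all genes tested exceeded all 18. The share of all genes doing so in several of the 5 was not computed, here or for the stroma and T cell genes below. The sum of the 22 overlapped, with 932, 944, 826, 630.3 and 900.1 CPM in the 5 libraries, against 540.1 to 912 CPM in the 18. Fcrl1, an Fc receptor-like protein of B cells, was at 6.84, 5.498, 3.82, 1.16 and 2.00 CPM, and the other 18 libraries lay between 0.1596 and 1.00 CPM. Ighd, the constant region of the IgD of resting follicular B cells, was at 24.0, 27.0, 11.3, 5.29 and 7.01 CPM, and the other 18 between 0.193 and 1.85 CPM. Glycam1, a ligand for lymphocyte entry made by high endothelial venules of lymphoid tissue, was at 14.6, 13.6, 0.661, 2.32 and 5.68 CPM, and no other library exceeded 0.372 CPM. Clu, which follicular dendritic cells make in quantity but epithelium makes too, was at 79.1, 78.5, 50.5, 31.4 and 34.8 CPM, against 8.46 to 35.1 CPM. Of 16 genes of follicle stroma and high endothelial venules, Glycam1 was the 1 that exceeded all 18 in every one of the 5 libraries, and 8 did so in none. All 5 libraries thus held Fcrl1, Ighd and Glycam1, which were chosen after their values were seen, above every other library, although Glycam1 in Cpa3Cre/+ day 1 replicate 2 rested on 9 reads.

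The sum of T cell genes was highest in the same 2 immunized libraries, whereas most other sums overlapped between the 5 libraries and the 18. Sums of 15 T cell genes, led by Cd4, Cd8a and Cd3g, were 108, 127, 89.4, 60.5 and 82.6 CPM, against 35.7 to 91.9 CPM, so the 2 immunized libraries lay above all 18 and the other 3 inside their range. Single T cell genes differed from this sum. Of the 15, 1 (Cd2) exceeded all 18 in every one of the 5 libraries, 1 did so in 4 and 3 in none. Cd4 was at 15.35 CPM in Cpa3Cre/+ immunized replicate 2, inside the 4.14 to 16.07 CPM of the 18. The part of T cell content in the members' levels was not tested. Summed over 14 plasma cell genes, led by Igha, Igkc and Jchain, the 5 libraries held 6514, 6591, 11810, 4327 and 9777 CPM, within 1866 to 11020 CPM of the other 18 but for Cpa3Cre/+ day 1 replicate 2. Summed over 11 genes of follicle-associated epithelium, led by Nlrc4, Tnfrsf11a and Anxa5, they held 263, 255, 259, 239 and 275 CPM, against 164 to 272 CPM. Sums of 10 fat cell genes, led by Adipor2, Lipe and Cidec, were 1045, 1224, 621, 774 and 649, against 437 to 1340 CPM. Of these 10, Adipoq, Plin1 and Lep were at or near 0 in every library, with at most 0.186 CPM. They were picked after their values were seen and do not stand for the list. Sums of 11 epithelial genes, led by Fabp2, Vil1 and Krt8, were 13100, 18260, 11020, 12820 and 10030 CPM, within the 5089 to 25120 CPM of the other 18. The sums of the T follicular helper, germinal centre, follicle stroma, pancreas and fat cell lists, which are dominated by genes that many cells of the gut express, overlapped between the 5 libraries and the 18.

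**Figure D4:**
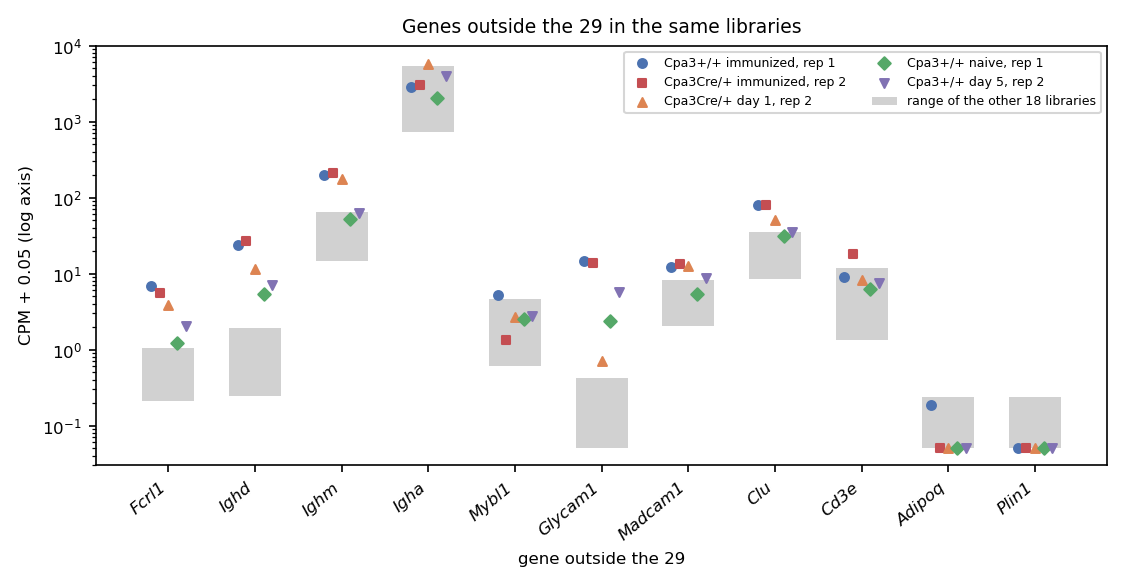
CPM + 0.05 (log axis) of 11 genes outside the 29 in the 5 libraries with the highest 5-gene sum, with grey bars for the range of the other 18. Fcrl1, Ighd and Glycam1 lie above the bar in all 5 libraries, and Igha, Mybl1 and Cd3e mostly lie inside it. Adipoq and Plin1, picked from the 10 fat cell genes, lie near 0.

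The first comparison asked whether the members differed between mast cell-deficient and wild-type mice, and none was called. Over the mean of the 5 states, 0 of 29 members passed at an adjusted p of 0.05 (edgeR quasi-likelihood test with Benjamini-Hochberg adjustment over all genes), and 0.029% of all genes did. None passed an unadjusted 0.05 either, and DESeq2 called 0. The median log2 fold change of the members, Cpa3Cre/+ over Cpa3+/+, was 0.18, beside 0.03 for all genes tested, and without Cpa3Cre/+ immunized replicate 2 it was -0.31.

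Within single states, 0 of 29 members were called in any of the 5, where 0% of all genes were called as well. DESeq2 also called 0 members in each, and edgeR without a filter on low counts called 13 on day 1 (0.727% of all genes) and 2 on day 5 (1.45%). On day 1, 11 members had an unadjusted p under 0.05 with higher levels in Cpa3Cre/+ (7.39% of all genes had such a p), and the median log2 fold change was 1.62 (2.81 without Cpa3Cre/+ day 1 replicate 1 and 0.36 without replicate 2). S1pr2 came first: it was at 3.72 and 6.32 CPM in Cpa3Cre/+ and at 2.23, 1.77 and 1.83 CPM in Cpa3+/+, which did not overlap, with a log2 fold change of 1.62 ± 0.49 (SE) and an edgeR adjusted p of 0.635. In the same comparison the 14 plasma cell genes had a median log2 fold change of 1.10, with 4 at an unadjusted p under 0.05, and the 15 T cell genes one of 0.43, with 0. Their part in the members' differences was not tested. Without the 4 follicle libraries, which leaves 1 Cpa3Cre/+ library on day 1, the members' median was 0.37. Those libraries were chosen for high levels of 5 members, so leaving them out lowers the groups they belong to by that choice. Values without them are given as a description and support nothing. In the naive, immunized, day 3 and day 5 states no member had an unadjusted p under 0.05 (5.34%, 0.951%, 1.55% and 9.26% of all genes did), and the medians were -0.21, -0.04, -0.14 and -0.61. In the immunized state the median was -1.63 without Cpa3Cre/+ immunized replicate 2 and 1.39 without Cpa3+/+ immunized replicate 1, so its direction turned with the library left out. On day 5 the median of -0.61 became 0.52 without Cpa3+/+ day 5 replicate 2.

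The second comparison asked what immunization did, averaged over both genotypes, and again 0 of 29 members were called (0% of all genes). The members' levels nevertheless leaned one way: 27 log2 fold changes were positive, with a median of 1.54 beside -0.03 for all genes, and 17 members had an unadjusted p under 0.05, all higher after immunization (10.9% of all genes had such a p). Other lists moved in the same comparison. Of 10 smooth muscle genes, 9 had an unadjusted p under 0.05, with a median log2 fold change of -1.11, as did 5 of 14 plasma cell genes (median 0.73) and 1 of 15 T cell genes (median 0.70). Their part in the members' differences was not tested. Cd79a came first, with 13.0 and 27.5 CPM in immunized Cpa3Cre/+ and 29.8 and 5.27 CPM in immunized Cpa3+/+, against 4.49 and 3.02 CPM in naive Cpa3Cre/+ and 8.43, 2.90 and 2.79 CPM in naive Cpa3+/+. Of the 4 immunized libraries, 3 lay above all 5 naive ones. Its log2 fold change was 2.13 ± 0.53 (SE), with an edgeR adjusted p of 0.377; DESeq2 called it with an adjusted p of 0.0189 and called no other member (0.203% of all genes), whereas edgeR without a filter on low counts called 19 members (1.8% of all genes). Without the 4 follicle libraries, Cd79a had a log2 fold change of 1.35 ± 0.45 (adjusted p = 1 in edgeR), the members' median was 0.30, and 2 members (Cd79a and Fcmr) had an unadjusted p under 0.05. Leaving out Cpa3+/+ immunized replicate 1 alone put the median at 0.66. The immunized group of the first of these fits held 1 library per genotype, assumed to vary like the other groups.

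Bcl6, the germinal centre repressor, was not called for immunized against naive. It was at 17.2 and 26.7 CPM in immunized Cpa3Cre/+ and 24.0 and 19.3 CPM in immunized Cpa3+/+, against 6.14 and 12.8 CPM in naive Cpa3Cre/+ and 17.5, 11.8 and 12.4 CPM in naive Cpa3+/+. The lowest immunized library lay just under the highest naive one. The log2 fold change was 0.94 ± 0.29 (SE) with all libraries and 0.79 ± 0.37 without the 4 follicle libraries, with an adjusted p of 0.377 in edgeR for all libraries. The fit without the follicle libraries held 1 immunized library per genotype and is given as a description only.

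The third set of comparisons followed the challenge. All 3 challenge days were set against the same 4 immunized libraries, 2 of which were follicle libraries, so their directions are not independent. All 29 log2 fold changes were negative on each day, with medians of -0.92 on day 1, -1.49 on day 3 and -1.46 on day 5, beside 0.02, 0.04 and 0.02 for all genes. Without Cpa3+/+ immunized replicate 1 alone, these medians were 0.01, -0.61 and -0.55. On day 1, 0 members were called (0% of all genes) and 7 had an unadjusted p under 0.05, as did 3.16% of all genes. On day 3, 0 members were called (0% of all genes) and 20 had an unadjusted p under 0.05, as did 9.58% of all genes. DESeq2 called 1 member on day 3, Cr2 (0.104% of all genes), and none on day 1, and edgeR without a filter on low counts called 17 on day 3 (0.886%) and 10 on day 1 (0.387%). On day 3, 5 of 10 smooth muscle genes had an unadjusted p under 0.05, with a median log2 fold change of 0.91. Cr2 was at 0.208 and 0.0996 CPM in day 3 Cpa3Cre/+ and 0.139 and 0.581 CPM in day 3 Cpa3+/+, against 0.582 and 14.4 CPM in immunized Cpa3Cre/+ and 19.8 and 0.0811 CPM in immunized Cpa3+/+. The immunized libraries spanned the day 3 ones on both sides. The log2 fold change of Cr2 was -4.94 ± 1.28 (SE), with an adjusted p of 0.483 in edgeR and 0.0475 in DESeq2.

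On day 5, 1 of 29 members was called by edgeR, Fcmr, which was lower than in the immunized state, where 1.94% of all genes were called. At an unadjusted p under 0.05 there were 22 of 29 members, all lower, and 17.3% of all genes. Fcmr was at 0.0744, 0.159 and 0.0941 CPM in day 5 Cpa3Cre/+ and 0.161 and 1.94 CPM in day 5 Cpa3+/+, against 0.728 and 12.5 CPM in immunized Cpa3Cre/+ and 11.1 and 0.649 CPM in immunized Cpa3+/+. The groups overlapped, since Cpa3+/+ day 5 replicate 2 lay above the 2 lower immunized libraries. The log2 fold change was -4.19 ± 1.04 (SE), with an edgeR adjusted p of 0.0469. The call was lost without Cpa3Cre/+ immunized replicate 2 (log2 fold change -2.42, adjusted p = 0.469 in edgeR), without Cpa3+/+ immunized replicate 1 (-2.63, 0.344) and without all 4 follicle libraries (-1.37 ± 0.91, 0.733). It was also lost with the replicate block and on leaving out most other single libraries, so it lay at the edge of the threshold. DESeq2 called 4 members on day 5 (5.55% of all genes), and edgeR without a filter on low counts called 19 (2.83%).

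Because 2 of the 4 immunized libraries are follicle libraries, leaving these out lowers the immunized level of the members by construction. Without the 4 follicle libraries the medians were -0.26, -0.15 and -0.02 for day 1, day 3 and day 5 against immunized. The signs then split into 12 positive and 17 negative on day 1, 10 and 19 on day 3, and 13 and 16 on day 5. The difference between the genotypes' responses was tested for each member on each challenge day and for immunization, and 0 of 116 such tests passed (3 had an unadjusted p under 0.05, lowest edgeR adjusted p 0.845).

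**Figure D5:**
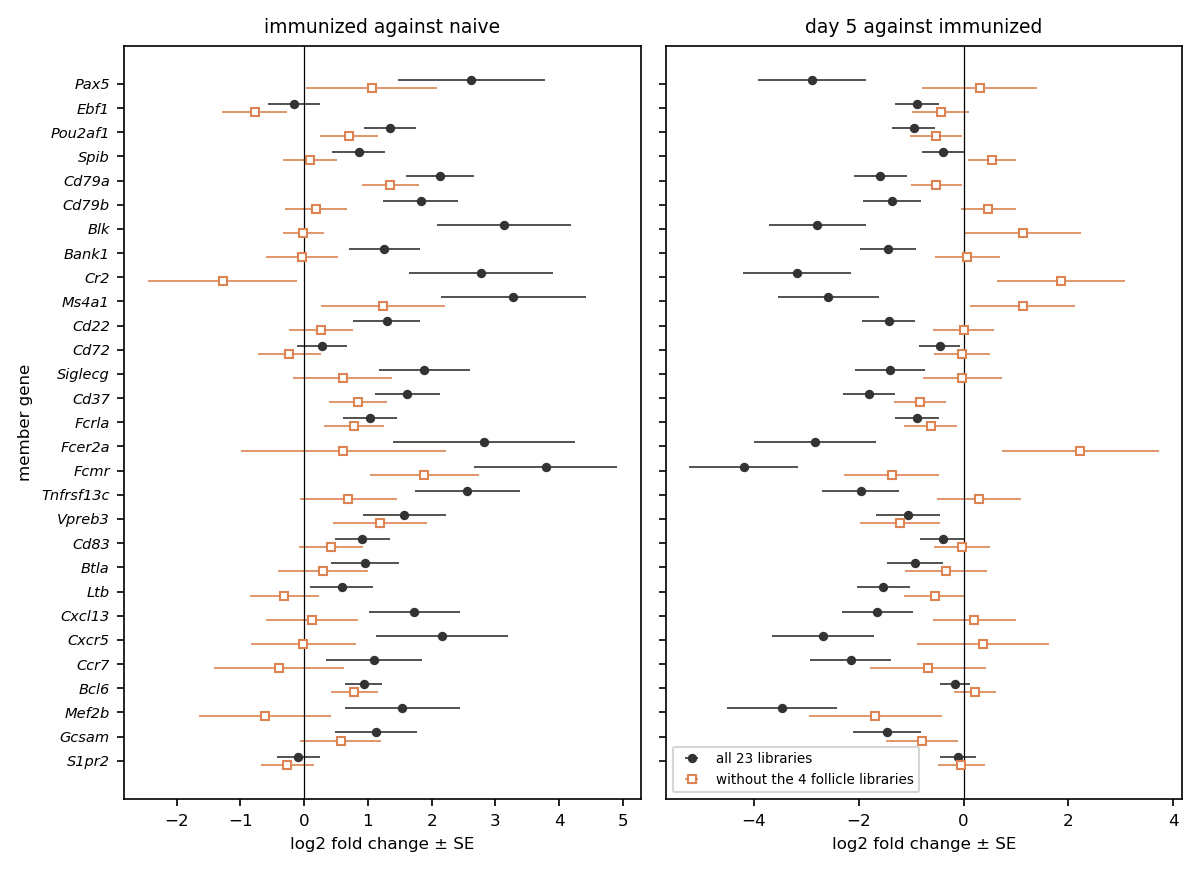
Log2 fold change ± SE of each member for immunized against naive (left) and day 5 against immunized (right), from the fit to all 23 libraries (filled) and the fit without the 4 follicle libraries (open). The filled points lie mostly above 0 on the left and below 0 on the right, and most open points lie nearer to 0, as the choice of the libraries left out implies.

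The same comparisons in the B cell genes outside the 29 gave 0 of 22 called in every comparison except day 5 against immunized, where Cd24a was higher, a surface protein that gut epithelium also makes. At an unadjusted 0.05 there were 11 of 22 for immunized against naive (10.9% of all genes), 13 for day 3 against immunized (9.58%) and 11 for day 5 against immunized (17.3%), with median log2 fold changes of 0.59, -0.56 and -0.78. None of the germinal centre, T follicular helper, follicle stroma, follicle-associated epithelium, plasma cell, T cell, fat cell, pancreas, smooth muscle or epithelial list genes was called in any comparison. Of all genes, 1.94% were called for day 5 against immunized and 0.029% between genotypes over the mean of the 5 states. In every other comparison 0% of all genes were called. With so few genes called at all, these counts of 0 say little about the lists. Of 9 mast cell genes, 4 were called higher on day 5 than in the immunized state (Mcpt1, Mcpt2, Mcpt4 and Fcer1a), as against 1.94% of all genes called in either direction.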

How the data were processed

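RNA was taken from whole jejunum, and libraries were made with a stranded kit, per the labels' protocols. The authors aligned reads with STAR to mm10/GRCm38 and counted them per gene with featureCounts (Subread 1.5.1); this is per the submitters' processing notes. The deposited table holds raw counts per Ensembl gene. How strand was used, the STAR version and the annotation release are not given in the sources used here. Symbols, positions and exon lengths came from GENCODE vM21 (GRCm38) for 55227 of 55487 genes. The other 260 held 0.0014% of reads.

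Groups came from the labels. The tests used edgeR 4.0.16 (robust quasi-likelihood fit, two-sided) run in R 4.3.3 as 1 model with 10 group means plus sex, with TMM scaling and filterByExpr. It left 17236 genes, 12 residual degrees of freedom; the biological coefficient of variation was 28.6%. P-values were Benjamini-Hochberg adjusted over all genes tested (threshold 0.05). CPM used the TMM factors (0.767 to 1.361). The error beside a log2 fold change is its standard error. The script was tested on simulated data. DESeq2 1.42.0 was an alternative.

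Replicate numbers recur between groups, and the main tests did not pair libraries by them. Of 93 same-numbered pairs, 22 had correlated deviations above 0.1 (range -0.40 to 0.62). Pairs with different numbers were not compared, so this cannot tell whether the numbers pair libraries.

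The members, lists and tests were chosen with earlier results of these data known. All 29 members are named. Of 12 other lists, those passing and the 3 with the highest level were to be named. The other genes named outside the 29 were chosen after their values were seen, as were the 3 added promoters. Results for some further genes are not reported here. The fits without the 5 libraries highest in the 5-gene sum, and the 4-gene sum, were added after seeing the data.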

Additional observations from a re-analysis of the deposited data

How the results depend on the processing

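Each count of members called was recomputed under the alternatives. In the 6 comparisons of genotypes, the count stayed at 0 in all alternatives except without a filter on low counts, where 13 members were called on day 1 (0.727% of all genes) and 2 on day 5 (1.45%). Without that filter, edgeR also called 19 members for immunized against naive, and 10, 17 and 19 for day 1, day 3 and day 5 against immunized (0.387%, 0.886% and 2.83% of all genes); it tested more genes and gave smaller standard errors. DESeq2 called 1 member for immunized against naive (0.203%), 1 for day 3 (0.104%) and 4 for day 5 against immunized (5.55%). In female libraries only, 1 was called for immunized against naive (5.46%). For day 5 against immunized, the replicate block, the fit without the 4 follicle libraries and that without the 5 libraries highest in the 5-gene sum each called 0 (Fcmr had an adjusted p of 0.0859 in edgeR with the replicate block). Whether shared replicate numbers pair libraries was not settled. Leaving out each library in turn gave 0 to 1 for immunized against naive, 0 to 3 for day 5 against immunized (the call of Fcmr was lost in 17 of 23 fits) and 0 in the other 8 comparisons. The number of follicle libraries was 2 when all 29 members were summed. The cause of these differences was not tested. DESeq2 size factors and leaving out the sex term gave counts equal to those reported. Members with a median of a few reads outside the follicle libraries limit what differences could be detected there. Counting intervals cover the counting error of the single gene only.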
